A study of Mus musculus with 2 samples.

Results

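Genes of lipid droplet storage and of the response to peroxisome proliferator-activated receptors (PPARs) were examined, 10 in all, for chromatin sites of KMT2D, a histone H3 lysine 4 methyltransferase. They were Plin2, Plin3, Plin5, Hilpda, Angptl4, Ppara, Ppard, Cpt1a, Acadvl and Pdk4, 10 of 21774 protein-coding genes. A peak was counted for a gene when its summit, the position of highest signal, lay inside the gene or within 50 kb of it. This took 9 of the 3738 peaks of the deposited list. The genes were proposed with the peaks and folds of this list in view, and so were in part selected on these values. Their counts and folds are descriptions and carry no test. The cells were HT22, an immortalised mouse hippocampal line, here a wild-type clone harvested at 70% confluency. Chromatin precipitated with an anti-KMT2D antibody (1 library) was set against input chromatin (1 library), which was not precipitated. Cells lacking the SET domain of KMT2D, which the series also describes, are not analysed here.

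Cells store neutral lipid in droplets whose surface is coated by perilipins, and lipases acting there release fatty acids for oxidation in mitochondria. Fatty acids bind the PPARs, nuclear receptors that pair with retinoid X receptors on direct repeats of a short sequence and raise the transcription of coat proteins, lipase inhibitors and oxidation enzymes. In mouse liver, KMT2D is known as a coactivator of PPAR gamma target genes during fat accumulation. Outside these data, PPAR elements have been described upstream of Plin2 and in introns of Angptl4 and of human CPT1A.

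KMT2D peaks lay at 5 of the 10 genes: Plin2, Plin5, Hilpda, Angptl4 and Cpt1a. Over all protein-coding genes, 24.9% had a summit inside or within 50 kb, and the 5 of 10 was set by the choice of genes. Of the 10, 4 had 2 peaks (all of the 5 but Plin5), where 9.22% of all protein-coding genes had 2 or more. Of the 5428 protein-coding genes with any such summit, 2007 had 2 or more. Plin3, Ppara, Ppard, Acadvl and Pdk4 had none. Only 4 of the 9 summits had one of the 10 genes as their nearest protein-coding gene: 1 at Plin2, both at Angptl4 and 1 at Cpt1a. The other 5 lay nearer to Plin4, Fam71f1, Mrpl21 or Dennd4c. With each peak given only to its nearest protein-coding gene, 3 of the 10 genes kept a peak, where 10.5% of all protein-coding genes had one.

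**Figure D1:**
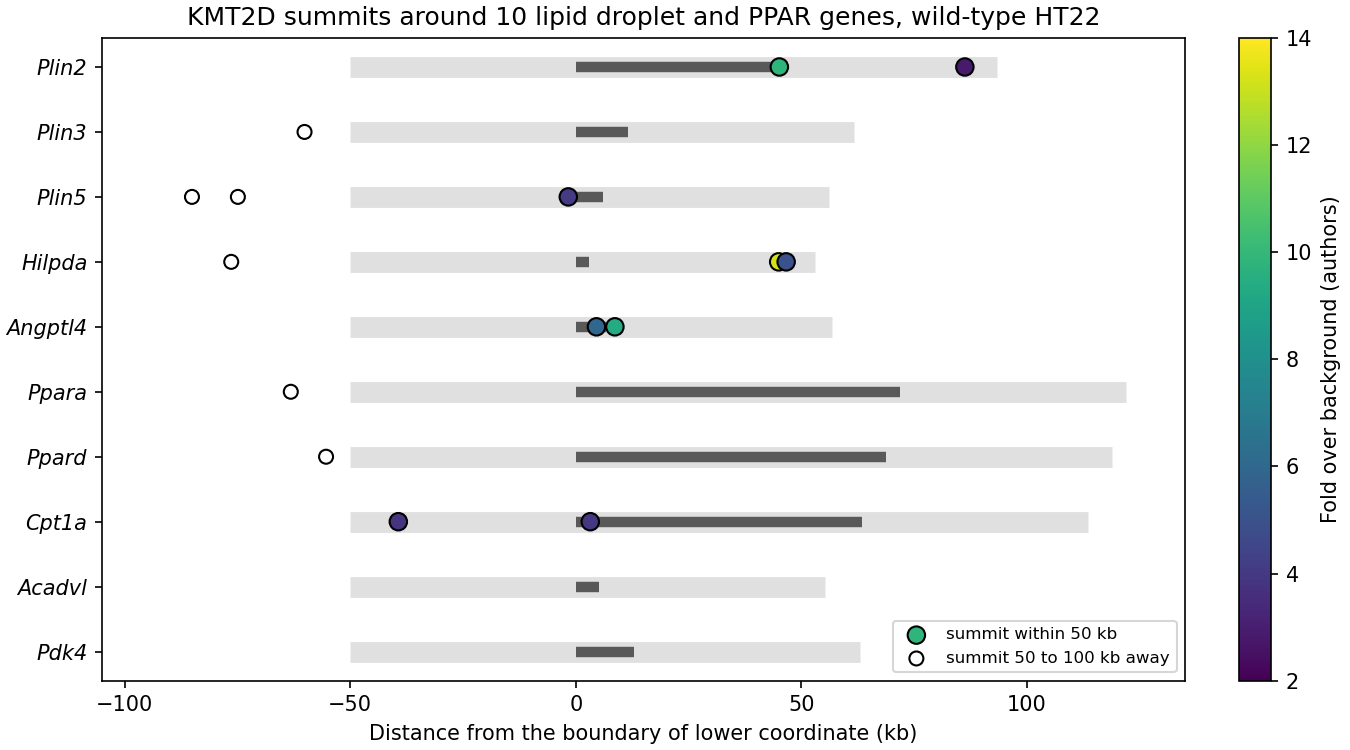
Positions of KMT2D summits around the 10 genes. The x axis is the distance in kb from the gene boundary of lower coordinate, dark bars are genes, pale bars the gene with 50 kb on either side, filled circles the 9 summits counted (colour, fold over background) and open circles summits 50 to 100 kb away. A summit sat beside or inside each of Plin2, Plin5, Angptl4 and Cpt1a. The other summits of Plin2 and Cpt1a lay 42911 and 39325 bp away, and those of Hilpda 42000 and 43654 bp away. Acadvl and Pdk4 had none in view.

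The peaks whose bases could be read were those that overlapped a RefSeq promoter window, the 250 bases before and the first 50 bases of a transcript (build GRCm38.p6, the same as mm10). They are shown because each stands at the promoter of a neighbour and not of the gene it was counted for. Capitals mark bases inside the KMT2D peak. The first lies under the peak counted for Plin5 (chr17:56109733-56110032, minus strand), the second under the weaker peak counted for Hilpda (chr6:29318890-29319189, plus strand) and the third under the outer peak counted for Cpt1a (chr19:3282792-3283091, plus strand).
Plin4: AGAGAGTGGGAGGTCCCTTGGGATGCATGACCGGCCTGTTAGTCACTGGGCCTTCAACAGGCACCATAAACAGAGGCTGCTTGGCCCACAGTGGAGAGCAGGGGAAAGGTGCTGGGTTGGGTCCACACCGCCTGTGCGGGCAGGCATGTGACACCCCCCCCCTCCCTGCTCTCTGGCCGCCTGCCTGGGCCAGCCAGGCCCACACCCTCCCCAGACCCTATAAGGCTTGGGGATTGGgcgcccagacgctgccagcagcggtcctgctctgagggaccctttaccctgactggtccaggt
Fam71f1: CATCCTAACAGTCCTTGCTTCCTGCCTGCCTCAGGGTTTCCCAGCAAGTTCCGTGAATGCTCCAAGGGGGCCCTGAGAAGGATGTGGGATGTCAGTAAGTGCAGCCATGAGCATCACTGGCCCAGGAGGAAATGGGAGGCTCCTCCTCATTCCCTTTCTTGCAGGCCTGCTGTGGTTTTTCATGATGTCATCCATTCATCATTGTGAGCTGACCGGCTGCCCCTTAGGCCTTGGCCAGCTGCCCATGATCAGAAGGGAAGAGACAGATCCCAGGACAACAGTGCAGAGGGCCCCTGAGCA
Mrpl21: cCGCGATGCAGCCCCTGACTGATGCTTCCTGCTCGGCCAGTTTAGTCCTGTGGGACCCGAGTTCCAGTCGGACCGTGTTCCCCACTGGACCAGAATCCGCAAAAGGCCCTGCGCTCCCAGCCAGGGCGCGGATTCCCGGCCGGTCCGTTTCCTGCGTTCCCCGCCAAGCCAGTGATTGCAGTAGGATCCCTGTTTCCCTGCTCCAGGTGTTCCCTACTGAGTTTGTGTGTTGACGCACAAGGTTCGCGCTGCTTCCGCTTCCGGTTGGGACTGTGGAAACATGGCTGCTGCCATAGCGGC
The peaks covered 237 of the 300 bases at Plin4, all 300 at Fam71f1 and 299 at Mrpl21. The summits fell on base 97 of the Plin4 window, base 214 of the Fam71f1 window and base 210 of the Mrpl21 window. The 3 windows differed in base content, with 7 CG dinucleotides at Plin4, 2 at Fam71f1 and 21 at Mrpl21. The median over 21263 promoter windows of protein-coding genes was 13.

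Among the droplet coat genes, the strongest site was at Plin2, which encodes the perilipin found on droplets of most cell types. Plin2 occupies chromosome 4 from 86626910 to 86670217 on the minus strand. Its near peak spanned 86671889 to 86672204, with the summit 1803 bp outside the gene and 1961 bp upstream of the listed transcription start. It carried 81 ChIP fragments over a background of 7.35, a fold of 9.82 (95% Poisson interval 7.82 to 12.2). The fold is the authors' value for the summit and is compared only within this list. This peak ranked 109th by fold and 105th by −log10 q (49.7) among 3738 peaks. The whole list had a median fold of 4.45 (interquartile range 3.50 to 5.75). Plin2 was the only protein-coding gene within 50 kb of that summit. A second peak of Plin2, from 86712878 to 86713177, lay 42911 bp outside and inside the long non-coding RNA gene Gm42312. It had 28 ChIP fragments over 9.22, a fold of 2.84 (1.92 to 4.06), and the intervals of the 2 peaks did not overlap.

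The promoter of Plin2 itself held no peak. Its window (chr4:86670010-86670309, minus strand) is printed because Plin2 had the highest fold among the peaks nearest to one of the 10 genes. Capitals mark, from 5′ to 3′, the reverse complement of AGGTCA, the core that PPAR elements repeat, and an E-box.
Plin2: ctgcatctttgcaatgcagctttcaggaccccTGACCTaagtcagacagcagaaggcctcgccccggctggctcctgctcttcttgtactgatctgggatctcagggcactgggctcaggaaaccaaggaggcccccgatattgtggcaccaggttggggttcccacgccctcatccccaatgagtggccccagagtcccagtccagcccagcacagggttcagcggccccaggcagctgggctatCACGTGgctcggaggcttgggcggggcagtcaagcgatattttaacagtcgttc
The core began 218 bases before the transcription start and the E-box 4 bases before it.

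Plin5 encodes the perilipin of tissues that burn fat, and Plin4 one that coats small droplets. The genes are neighbours on chromosome 17, Plin5 at 56111597 to 56117606 and Plin4 at 56100587 to 56109948, both on the minus strand. The only peak counted for Plin5 spanned 56109796 to 56110079, 1661 bp beyond the downstream end of Plin5. Its summit was 12 bp inside the upstream boundary of Plin4 and 154 bp before the listed start of Plin4. It had 40 ChIP fragments over a background of 9.08, a fold of 4.07 (2.93 to 5.50). The fold was below the median of the list, and its interval held that median. The nearest listed start of Plin5 itself was 7362 bp from the summit. Plin3, which encodes a perilipin that moves from the cytosol onto new droplets, lies on the same chromosome at 56278962 to 56290511 and had no peak within 50 kb. The closest was 60109 bp away, with a fold of 4.84 (3.64 to 6.32), and lay 36 bp inside an end of Dpp9.

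Of the lipase inhibitors, Angptl4 had 2 peaks close by and Hilpda none closer than 42 kb. Angptl4 encodes a secreted inhibitor of lipoprotein lipase and occupies chromosome 17 from 33774900 to 33781575. The outer peak, 33783412 to 33784005, had its summit 1994 bp outside the gene, with 69 ChIP fragments over 6.49 and a fold of 9.35 (7.31 to 11.8). The inner peak, 33779278 to 33779802, had its summit inside the gene, 2102 bp from the same end, with 61 fragments over 9.51 and a fold of 5.90 (4.53 to 7.55). The intervals of the 2 overlapped, and both folds were above the upper quartile of the list. They were the widest of the 9 peaks, at 594 and 525 bp, against a median width of 296 bp over the list. No other gene of any class lay nearer to either summit.

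Hilpda encodes a small protein that inhibits adipose triglyceride lipase at the droplet and is induced by hypoxia and by PPARs. It lies on chromosome 6 from 29272488 to 29275449 on the plus strand. The highest fold among the 9 peaks was counted for it, at 29317307 to 29317639, with 64 ChIP fragments over a background of 3.91 and a fold of 13.2 (10.2 to 16.8), 14th of the list. Its summit was 42000 bp from Hilpda and inside Fam71f1, 3980 bp from an end of that gene. It also lay 1691 bp before a listed start of Fam71f1. Fam71f2 and Calu, 26765 and 30657 bp from the summit, were nearer than Hilpda too. A second peak stood 1654 bp further on, at 29318884 to 29319225, with 32 fragments over 5.62 and a fold of 4.98 (3.46 to 6.97). That summit was 43654 bp from Hilpda and 37 bp before a listed start of Fam71f1. The intervals of the 2 did not overlap. The higher fold came with the lowest background of the 9 peaks, while its ChIP fragments were fewer than at the near peak of Plin2 or the outer peak of Angptl4.

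**Figure D2:**
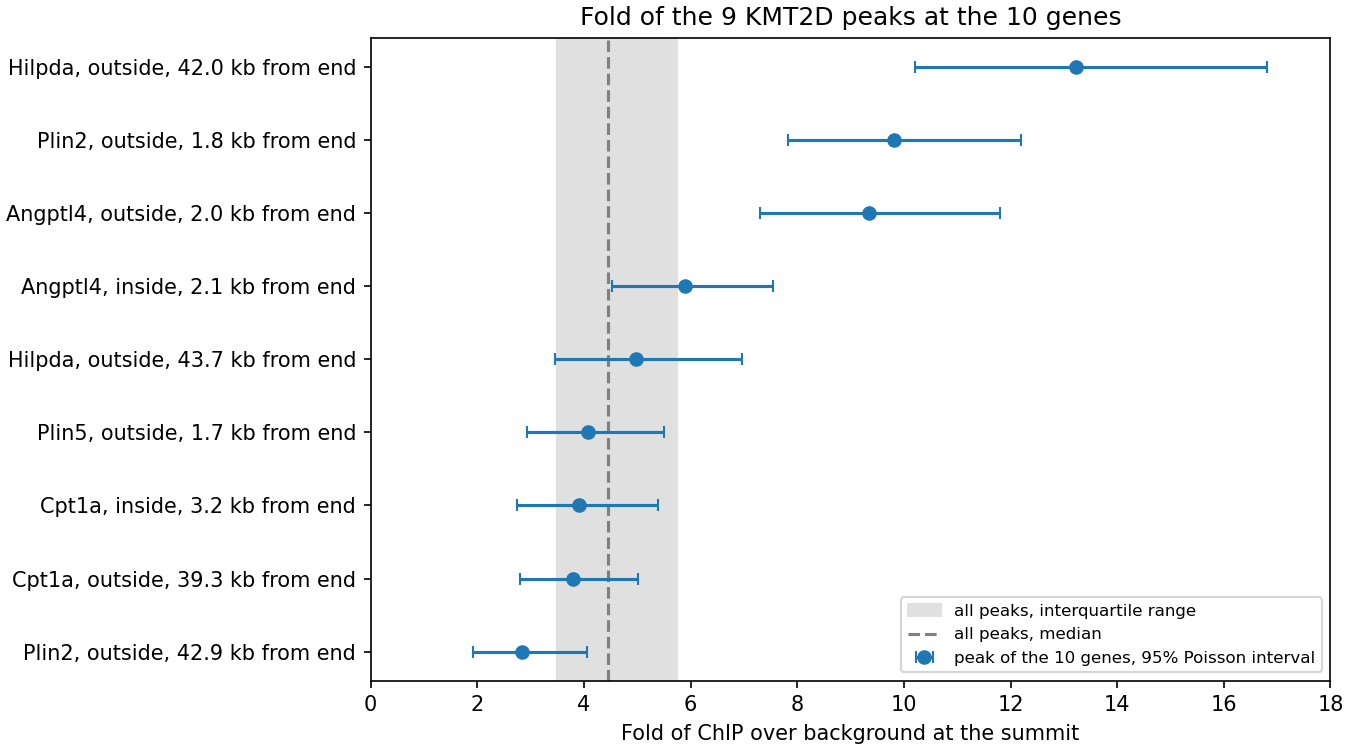
Fold of ChIP over background at the 9 summits. Points are the authors' folds, bars exact 95% Poisson intervals (counting error only), the grey band the interquartile range of all 3738 peaks (3.50 to 5.75) and the dashed line their median (4.45). The higher Fam71f1 peak counted for Hilpda (13.2), the near Plin2 peak (9.82) and the outer Angptl4 peak (9.35) have intervals wholly above the band.

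Of the receptor genes, Ppara and Ppard had no peak within 50 kb. Pparg, which is not among the 10 genes, had 3 and is described below with its list. Ppara encodes the PPAR that drives fatty acid oxidation in liver, and Ppard the one expressed in most tissues, including brain. Ppara lies on chromosome 15 from 85734910 to 85806851, and the closest summit was 63154 bp away with 29 fragments over 7.35, a fold of 3.59 (2.45 to 5.11). Ppard lies on chromosome 17 from 28232754 to 28301469, and the closest summit was 55339 bp away with 52 fragments over 10.5, a fold of 4.6 (3.45 to 6.0). The summit near Ppara had Ppara as its nearest protein-coding gene, while the Ppard neighbour stood inside Zfp523, 219 bp from an end of it. These distances, with the 60109 bp at Plin3, were the nearest outside the 50 kb limit, and the Plin2 and Hilpda peaks at 42911 and 43654 bp the nearest inside. A limit of 100 kb raised the count to 8 of the 10 genes, where 35.8% of all protein-coding genes had a peak.

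Of the mitochondrial genes, Cpt1a had peaks and Acadvl and Pdk4 did not. Cpt1a encodes the carnitine palmitoyltransferase that admits long-chain fatty acids to mitochondria, and lies on chromosome 19 from 3322326 to 3385735 on the plus strand. The inner peak, 3325250 to 3325607, had its summit inside the gene, 2235 bp downstream of the listed start, with 35 ChIP fragments over 8.22. Its fold was 3.91 (2.75 to 5.39). The outer peak, 3282793 to 3283104, had 47 fragments over 11.7 and a fold of 3.79 (2.80 to 5.01). Its summit lay 39325 bp from Cpt1a, where the starts of the divergent genes Mrpl21 and Ighmbp2 meet, 41 bp before the listed start of Mrpl21 and 9 bp inside that of Ighmbp2. Both intervals held the median of the list, 4.45. Acadvl, which encodes an acyl-CoA dehydrogenase for very long chains, had its closest summit 173955 bp away. Pdk4, whose kinase restrains pyruvate oxidation and which is a widely used PPAR target, had its closest 559377 bp away. That distant summit had a fold of 12.6 (10.1 to 15.5) and lay inside Ppp1r9a.

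Positions relative to gene ends were then counted. Within 2 kb of either end, 3 of the 10 genes had a summit (Plin2, Plin5 and Angptl4), where 5.08% of protein-coding genes did. All 3 summits were outside their genes, at 1661 to 1994 bp, and the one counted for Plin5 lay nearer to Plin4. With each peak given only to its nearest protein-coding gene, 2 of the 10 had a summit there, where 4.27% of protein-coding genes did. With an end window of 1 kb none of the 10 had one, where 3.94% of protein-coding genes did, so the count of 3 rests on the width of the window. A summit inside the gene was found at 2 of the 10, Angptl4 and Cpt1a, where 6.72% of protein-coding genes had one. Of the 9 genes with a promoter entry, all but Angptl4, only Plin2 had a summit within 2 kb of a listed start, where 4.72% of 17492 genes did. In the order of the 1006 peaks at gene ends by fold, Plin2 stood 13th and Angptl4 20th. Near Plin2 stood Aloxe3 (9.90) above, and Ttc23l (9.78) and Vipr1 (9.77) below. Next to Angptl4 stood Ctc1 (9.44) and Rps29 (9.37) above, and Tnrc18 (9.34) and Snx12 (9.09) below. The Poisson intervals of these named neighbours overlapped those of Plin2 and Angptl4. The summits of Aloxe3, Ctc1 and Rps29 lay within 500 bp of a small RNA gene, and none of the 9 peaks at the 10 genes did.

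**Figure D3:**
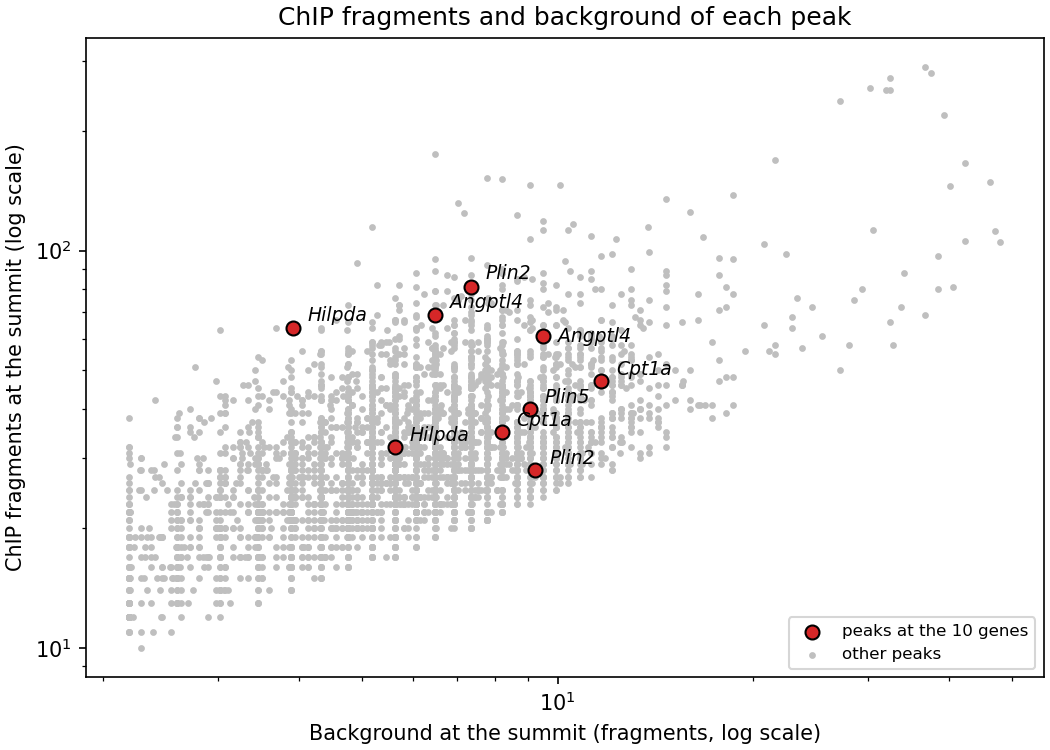
ChIP fragments (y axis, log scale) against background fragments (x axis, log scale) at the summit. Each point is a peak with background under 50 and under 300 ChIP fragments (red, the 9 peaks at the 10 genes, by gene; grey, other peaks). The higher-fold peak counted for Hilpda, inside Fam71f1, pairs 64 fragments with a background of 3.91, while Cpt1a has 47 over 11.7.

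The 9 peaks had a median of 47 ChIP fragments (range 28 to 81), where the solved peaks of the list had a median of 30. Their median background was 8.22 (range 3.91 to 11.7), where the list had 6.05. Their folds had a median of 4.98, with 4 of 9 at or over the upper quartile of fold (5.75) and 7 of 9 reaching its median −log10 q of 8.26. The 9 summits had a median of 4 protein-coding genes within 50 kb (range 1 to 7). All 3706 peaks on chromosomes 1 to 19, X and Y had a median of 2 (lowest 0). By the counting rule each of the 9 had at least 1 such gene, so the selection of peaks set part of this difference. What part gene density had in the counts was not tested. With 1 library of each kind, no spread between replicates could be set against any of these values.

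Other genes of the pathway were taken from 4 lists, written with earlier results of these data known, so their shares are descriptions and their intervals cover counting error only. Of 172 matched genes, 52 had a summit inside or within 50 kb (30.2%, Wilson 95% interval 23.9 to 37.5), where all protein-coding genes had 24.9%. At gene ends the count was 9 of 172 (5.23%, 2.78 to 9.64), where all protein-coding genes had 5.08%. The PPAR partners and coregulators had the most at ends, 6 of 33 (18.2%, 8.61 to 34.4). They were Tbl1xr1 (fold 4.78) and Tbl1x (3.88), which encode subunits of a corepressor complex, Nrip1 (3.43), a corepressor gene, Sirt1 (3.08), a deacetylase gene, Ep300 (3.03), an acetyltransferase gene, and Paxip1 (2.88), whose product binds KMT2D complexes. All 6 folds but that of Tbl1xr1 were below the median of the list, but only the interval of Paxip1 (2.01 to 4.01) lay wholly below it. Within 50 kb the same list had 14 of 33 (42.4%, 27.2 to 59.2). Those with a high fold away from the ends included Ncoa1 (7.41), Ncoa3 (6.60) and Pparg (6.55). The peaks of Ncoa1 and Ncoa3 and the highest of the 3 of Pparg lay 26047, 23621 and 43934 bp outside and nearer to other genes.

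The remaining lists had 1 gene each with a peak at an end. Over all protein-coding genes, 5.08% had a summit at an end, 24.9% inside or within 50 kb and 6.72% inside the gene. Lipid droplet coat and regulatory genes had 1 of 39 at an end (2.56%, 0.454 to 13.2), Plin4, through the peak counted for Plin5. Within 50 kb they had 15 of 39 (38.5%, 24.9 to 54.1), led by Faf2 (10.1), Lipa (8.66), Soat2 (6.68) and Dgat1 (6.15), each with its peak nearer to another gene. Peaks inside the gene were found at 5 of the 39, Plin4 included through the same peak. Among the 5 were also Lipe (4.50), the hormone-sensitive lipase gene, and Gpat3 (5.49), which encodes an enzyme of triglyceride synthesis. Fatty acid oxidation genes had 1 of 47 at an end (2.13%, 0.377 to 11.1), Acsl1, an acyl-CoA synthetase gene, with a fold of 5.56 (3.83 to 7.82). That summit was 1687 bp outside Acsl1 and nearer to the long non-coding RNA gene Gm31050. Within 50 kb they had 10 of 47 (21.3%, 12.0 to 34.9) and none inside the gene. Apart from Acsl1, the highest were Crat (11.0), Mlycd (5.56), Etfb (5.38) and Cpt1c (4.20), all with another gene nearer. PPAR target genes outside oxidation had 1 of 56 at an end (1.79%, 0.316 to 9.45), Me1, the malic enzyme gene, with a fold of 3.23 (2.01 to 4.96). Within 50 kb they had 15 of 56 (26.8%, 17.0 to 39.6), among them Angptl8 (7.80), Apoa2 (6.21) and Pdk1 (6.0). The Angptl8 and Apoa2 peaks lay 31036 and 36676 bp away, nearer to Dock6 and Adamts4. The Pdk1 peak lay 15487 bp from Pdk1, its nearest gene.

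**Figure D4:**
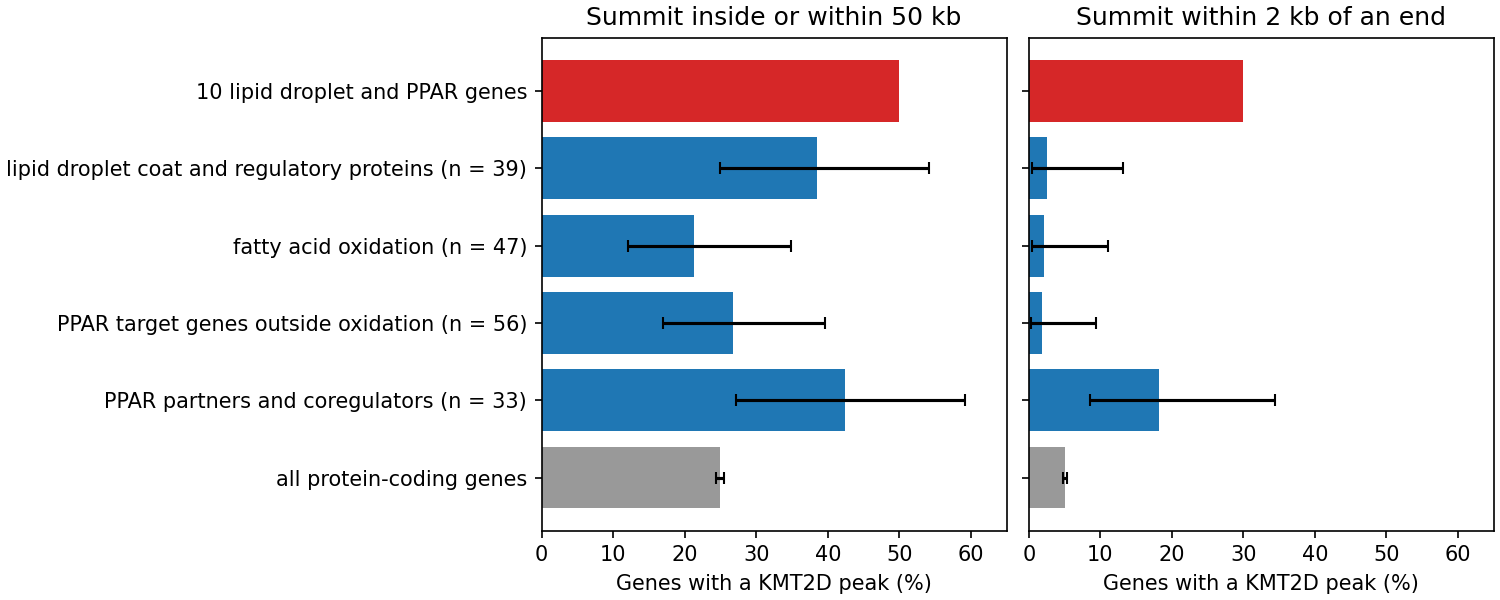
Share of genes with a KMT2D summit inside or within 50 kb (left) and within 2 kb of an end (right). Bars are the 10 genes (red, no interval because they were chosen), the 4 pathway lists (blue) and all protein-coding genes (grey), with Wilson 95% intervals. At gene ends the PPAR partner list stands at 18.2% and all protein-coding genes at 5.08%, a description, since the lists too were written with earlier results known.

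Promoter letters were searched in the 9 genes with an entry, on both strands. The PPAR element, searched as AGGNCA repeated with any 1 base between, was found in none of the 9 and in 0.353% of the 21263 promoter windows. Its stricter form, AGGTCA repeated with any 1 base between, was also found in none, and in 0.047% of windows. A single AGGTCA was in the promoters of 4 genes (Plin2, Plin5, Cpt1a and Acadvl), where 14.7% of windows held it. The hypoxia response core ACGTG was in 4 (Plin2, Hilpda, Acadvl and Ppard), where 20.9% of windows held it, and the E-box CACGTG, which contains it, in Plin2 alone, where 7.84% did. The AP-1 letters TGANTCA were in 3 (Hilpda, Plin5 and Acadvl), where 6.99% did, and the CRE letters TGACGTCA in none, where 2.23% did. Hilpda and Plin5 each had 2 listed starts, so their search covered more bases. None of these motifs was in the Plin4, Fam71f1 or Mrpl21 windows printed above. Sequence under the peaks near Plin2, Angptl4 and the start of Cpt1a was not analysed here.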

How the data were processed

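Per the labels, sonicated nuclear lysates of wild-type HT22 cells were precleared before precipitation, and 1 ChIP and 1 input library were made. Bowtie2, Picard, MACS2 and mm10 are named in the submitters' processing notes; versions and settings were not stated there. The deposited list holds, for each peak, the authors' fold (the ratio between ChIP and background where the peak is highest), its −log10 p-value, its −log10 q-value and a score. The deposited score is the −log10 q in another scale and was not used.

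Library totals are not in the list. Fragments behind each peak were solved from fold = (n + 1)/(b + 1) and a Poisson tail above n with mean b. The solved −log10 p was within 0.001 of the deposited one for 3690 of 3738 peaks, and for all 9 peaks described. Intervals on a fold hold the background fixed, and all intervals cover counting error only. Genes (49595 of 49997 on main chromosome sequences) and promoters came from RefSeq, GRCm38.p6. Positions count from 1. Exons and introns were not annotated. Of 173 listed pathway genes, 172 matched; 3 genes stand in more than 1 list.

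The 10 genes, the lists and the rules were chosen with earlier results of these data known. Named were the 10 genes, nearer neighbours of their summits, listed genes with an end peak, up to 4 per list of highest fold elsewhere, and the neighbours of Plin2 and Angptl4 by gene-end fold; Lipe and Gpat3 were named after their values were seen. Some genes that the rule takes are not reported here. A peak list does not measure expression, so the cell line was not checked against markers. The procedures were tested on simulated data. Python 3.11.15, scipy 1.17.1 and pandas 2.3.3 were used.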

Additional observations from a re-analysis of the deposited data

How the results depend on the processing

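Of 72 recomputed values, 51 stayed within 1.5 times the reported count or share, or within the Poisson interval of a fold, and 21 moved. Among the 10 genes, those with a peak numbered 8 within 100 kb, 3 with nearest-gene assignment and 3 among peaks from the upper quartile of fold up, and their peaks 5 within 10 kb, 15 within 100 kb, 4 with nearest-gene assignment and 4 in that fold class. At gene ends the 1 kb window left 0 of them. Pathway genes within the window numbered 24 at 10 kb, 22 with nearest-gene assignment, 32 among peaks in the upper part by −log10 q (from the median up) and 15 in the fold class, and at gene ends 3 and 0 in those 2 stricter lists. The share of all protein-coding genes was 12.1%, 10.5%, 13.6% and 7.48% in those 4 settings, and 1.72% and 0.657% at ends in the stricter lists. Within the 250 bases before the start, no promoter held the whole E-box, because that of Plin2 runs across the start. The construction of each setting, with fewer peaks, another width or 1 gene per peak, sets the direction of these moves. Counting the whole peak interval, and leaving out peaks of background over 20 fragments or at small RNA genes, left the counts for the 10 genes as reported. Folds without the added 1 ran from 3.04 to 16.3. No paired analysis was possible because there was 1 library of each kind. Depth leaves each fold at least as uncertain as its Poisson interval, which holds the background fixed. Peaks below the authors' threshold are not in the list.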
